A study of Homo sapiens with 34 samples.

Results

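The genes described here are 10 targets of the transcription factor NRF2 that answer oxidative stress: HMOX1, NQO1, GCLC, GCLM, TXNRD1, SRXN1, SLC7A11, OSGIN1, TXN and SQSTM1. They were chosen by name as NRF2 targets, with earlier results of these data known. All 10 were found among 19974 protein-coding genes on chromosomes 1 to 22 and X. A gene was counted as occupied in a library when a called region overlapped the gene or the 1 kb on either side of it by at least 1 bp. Occupancy came from CUT&RUN, which sequences the DNA that a nuclease cuts loose beside an antibody's target. All libraries were from U2OS, 1 human osteosarcoma line, harvested 3 h after release from a thymidine block, in early S phase. The antibodies bound SMARCA1, a motor subunit of ISWI nucleosome remodellers, OGG1, which excises oxidised guanine from DNA, and Orc6, a subunit of the origin recognition complex. No library measured NRF2 itself or RNA, so the values below describe where the 3 proteins were found and not how strongly the genes were expressed.

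SMARCA1 and OGG1 were each profiled in 4 groups of 2 libraries: siOrc6 with H2O2, siOrc6 non-treated (NT), siGl3 with H2O2 and siGl3 NT. Orc6 was profiled in siGl3 cells alone, with H2O2 and NT, in 2 groups of 2. All cells carried an siRNA for 72 h, siOrc6 against Orc6 or siGl3 as its control, and the H2O2 cells received 5 mM H2O2 for 30 min. Of 34 samples in 18 groups, these 20 libraries in 10 groups had a region list, and 14 samples without one (IgG, SMARCA5, siOrc2 and a further Orc6 antibody) were not analysed here. The knockdown of Orc6 was not checked by these files. The deposited names of all 4 SMARCA1 siOrc6 lists are marked as resubmitted and those of the SMARCA1 siGl3 lists are not, so siRNA and this mark cannot be told apart for SMARCA1.

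NRF2 is held low by KEAP1, which hands it to a CUL3 ubiquitin ligase, and is released when oxidants modify KEAP1. It then pairs with small MAF proteins on antioxidant response elements near its targets. The targets make glutathione, reduce thioredoxin and peroxiredoxins, and detoxify quinones and haem.

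The lists hold regions and no read counts, so sequencing depth is unknown. They held 6992 to 132408 regions, covered 31.8 to 825 Mb of the genome, and reached 13.5% to 85.8% of protein-coding genes, with SMARCA1 siGl3 NT replicate 1 the shortest. List length moved with antibody, siRNA and treatment, so the comparisons below were repeated with lists cut to equal length. Of the 10 NRF2 targets, 4 to 10 were occupied per library. The share of targets occupied was above the share of all protein-coding genes in 20 of 20 libraries.

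**Figure D1:**
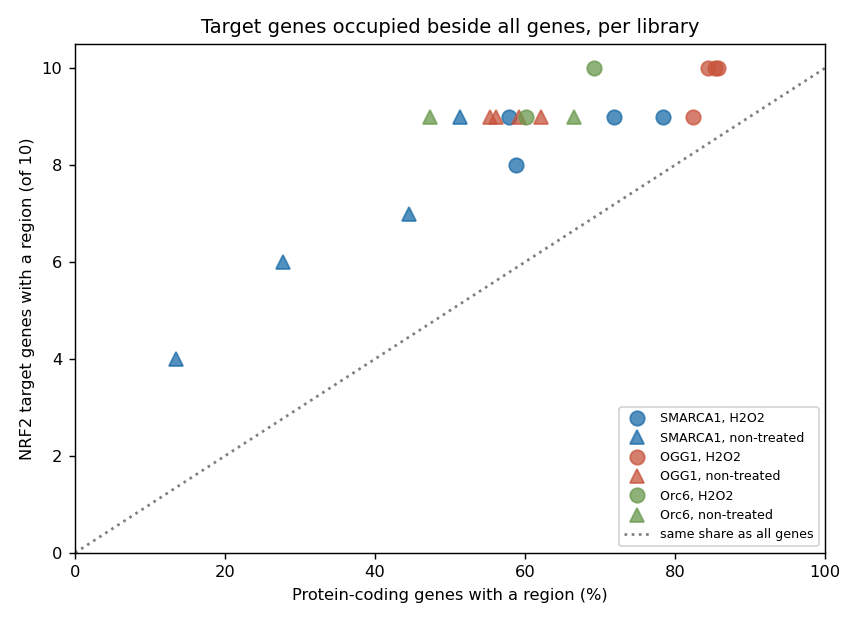
The percentage of protein-coding genes with a called region (x axis) is plotted against the number of the 10 NRF2 targets with one (y axis), 1 point per library. Circles are H2O2 libraries and triangles NT libraries, colours are antibodies, and the dotted line marks an equal share. All 20 points lie above the line, from the shortest list, with 4 targets at 13.5% of genes, to OGG1 siGl3 H2O2 replicate 2, with 10 targets at 85.8%.

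The targets also carried strong regions within their lists. Regions of a library were ranked by total signal, and the rank was given as a percentile of that list, so that 100 is its strongest region. Over the 20 libraries, the median percentile of the strongest region per occupied gene was 83.5 for the targets and 75.6 for all occupied protein-coding genes, and it was higher for the targets in 16 of 20 libraries. HMOX1 stood highest, with a median of 99.8, and SLC7A11 lowest, with 42.5. Between them lay OSGIN1 at 92.2, GCLC at 91.8, SQSTM1 at 89.4, TXNRD1 at 87.4, NQO1 at 84.4, GCLM at 78.6, TXN at 74.2 and SRXN1 at 68.9. Neighbours in this order overlapped in their range over libraries. These medians are over the libraries in which a gene was occupied, and a long gene or window has more chances to meet a strong region.

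**Figure D2:**
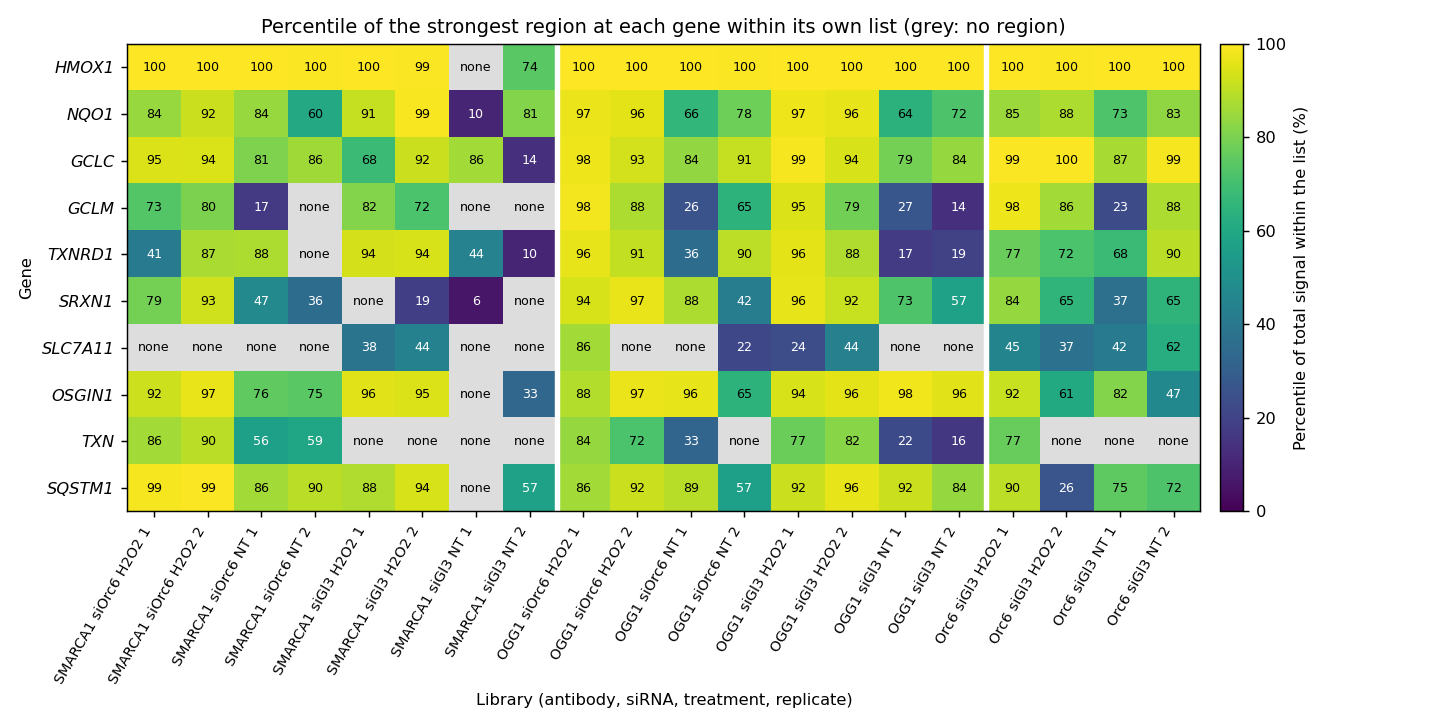
Percentile of total signal of the strongest region at each of the 10 NRF2 targets (rows) in each of 20 libraries (columns); grey cells had no region. HMOX1 is near 100 in all libraries but SMARCA1 siGl3 NT, where replicate 1 had no region and replicate 2 stood at 74.3, while SLC7A11 and TXN are grey in 10 and 8 libraries.

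HMOX1 encodes haem oxygenase 1, which breaks down haem to biliverdin, iron and carbon monoxide. The gene lies on chromosome 22 at 35381096 to 35394207 (GRCh38), and was occupied in 7 of 8 SMARCA1, 8 of 8 OGG1 and 4 of 4 Orc6 libraries. Its strongest region was among the first 100 of the list in 13 libraries, and its place over all libraries ran from 13 to 2841.

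These HMOX1 regions were broad and their peaks mostly lay outside the gene. Region width was 4485 to 67011 bp for SMARCA1, 43583 to 175026 bp for OGG1, with a median of 116106.5 bp, and 26917 to 58101 bp for Orc6. The point of maximum signal fell inside HMOX1 in 2 libraries, both of SMARCA1. It fell inside the neighbouring gene TOM1, on chromosome 22 at 35299275 to 35347973, in 5 OGG1 libraries, and inside MCM5, at 35400140 to 35455031, in 1 SMARCA1 library. In the other 11 libraries it lay in no protein-coding gene. Of those, 8 maxima stood together, 8.61 to 9.28 kb below the lower end of HMOX1, in 3 SMARCA1, 1 OGG1 and 4 Orc6 libraries. The strongest HMOX1 region also overlapped TOM1 or MCM5 in 14 of 19 libraries, 3 of SMARCA1, 8 of OGG1 and 3 of Orc6, where its percentile belongs to a neighbour as well. In the other 5, 4 of SMARCA1 and 1 of Orc6, it overlapped neither, at percentiles of 74.3 to 100.

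**Figure D3:**
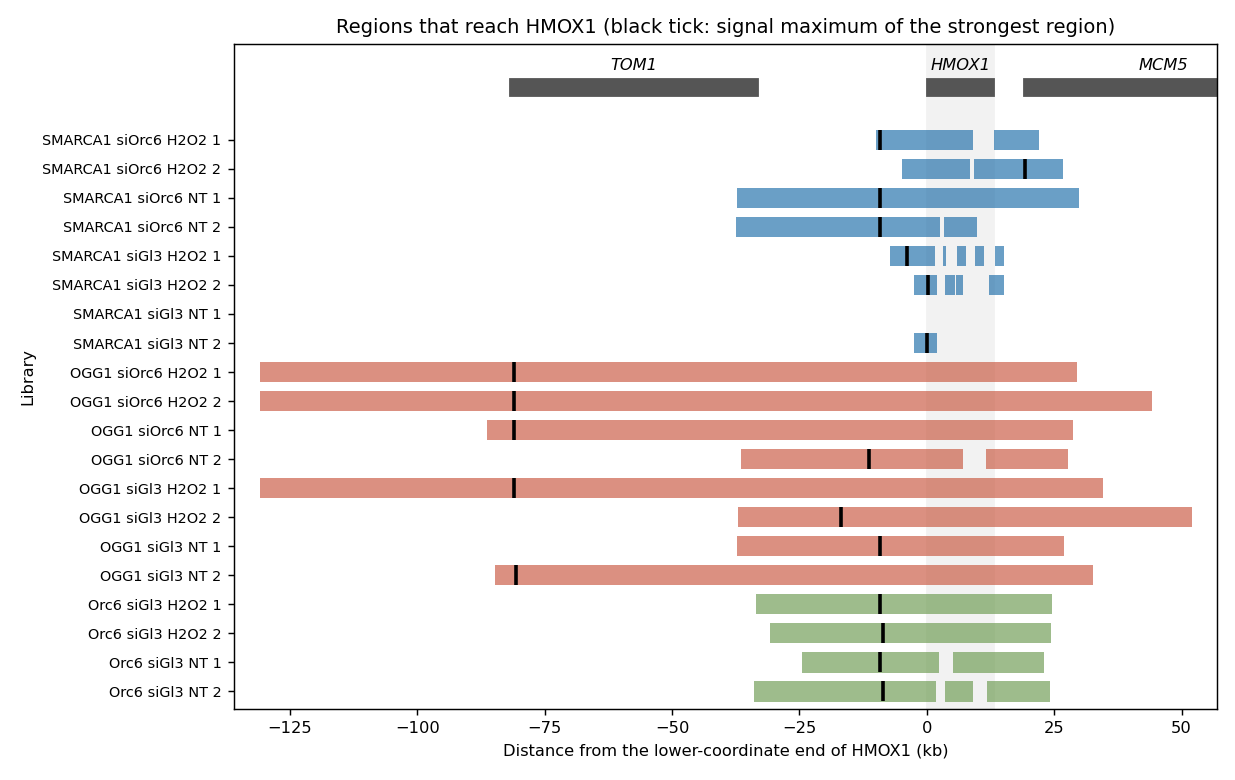
Called regions that reach HMOX1 in each library (rows, horizontal bars), with black ticks at the point of maximum signal and the spans of TOM1, HMOX1 and MCM5 on top; the x axis is distance in kb from the lower end of HMOX1. OGG1 bars run over TOM1 and HMOX1, and 8 ticks, all 4 of Orc6 among them, line up 8.61 to 9.28 kb below the gene.

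NQO1, the quinone reductase, lies on the minus strand of chromosome 16 at 69709401 to 69726560. It was occupied in 20 of 20 libraries, at percentiles of 10.5 to 99.0. The lowest value came from the shortest list, SMARCA1 siGl3 NT replicate 1, where NQO1, GCLC, TXNRD1 and SRXN1 were the 4 targets occupied. Its maximum lay within 1 kb of the annotated start in 16 of 20 libraries, and the window of 1 kb on each side of that start met a region in all 20.

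Glutathione synthesis begins with glutamate-cysteine ligase, made of the catalytic subunit GCLC and the modifier subunit GCLM, and draws on cystine imported by SLC7A11. GCLC, on the minus strand of chromosome 6 at 53497341 to 53545101, was occupied in 20 of 20 libraries at percentiles of 13.8 to 99.6. Its maximum lay within 1 kb of the start in 5 of 8 SMARCA1, 6 of 8 OGG1 and 0 of 4 Orc6 libraries. In the 4 SMARCA1 siOrc6 libraries the GCLC maxima stood close together, at 163, 186, 154 and 196 bp inside the gene from its start. The 6 OGG1 maxima within 1 kb, from libraries of both siRNAs, stood there too, 153 to 268 bp inside the gene. The GCLC start window was occupied in 4 of 4 SMARCA1 siOrc6 libraries and 1 of 4 SMARCA1 siGl3 libraries, a difference that did not pass (Fisher's exact test, unadjusted two-sided p = 0.143).

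GCLM, on the minus strand of chromosome 1 at 93885199 to 93909430, was occupied in 5 of 8 SMARCA1, 8 of 8 OGG1 and 4 of 4 Orc6 libraries. In H2O2 libraries of SMARCA1, its percentiles were 73.4 and 80.3 with siOrc6 and 81.6 and 71.6 with siGl3. Among NT libraries of SMARCA1 it had a region in siOrc6 replicate 1 alone, at percentile 16.9. OGG1 gave 98.3, 87.6, 94.6 and 78.6 in H2O2 libraries, against 25.6, 64.8, 26.9 and 13.6 in NT libraries. The siOrc6 values of 98.3 and 87.6 came from regions with their maxima in DNTTIP2, a neighbouring gene, so these percentiles belong to it as well. The region at 87.6 ended at 93885079 and met only the 1 kb flank of GCLM. All OGG1 H2O2 values at GCLM were above all OGG1 NT values, but places in lists of unequal length do not show a change in signal. The median over all occupied genes was also higher, at 88.1 to 91.0 in OGG1 H2O2 and 65.9 to 71.1 in OGG1 NT libraries. For SMARCA1 it was 76.4 to 85.9 with H2O2 and 51.8 to 61.1 in NT.

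SLC7A11, the cystine transporter subunit, lies on chromosome 4 at 138164097 to 138242349 and was the least often occupied target. It had a region in 2 of 8 SMARCA1, 4 of 8 OGG1 and 4 of 4 Orc6 libraries. The SMARCA1 regions were both in siGl3 H2O2 libraries, at percentiles 38.4 and 43.8. Orc6 gave 45.1 and 37.2 with H2O2 and 41.6 and 62.3 in NT libraries. In 9 of 10 libraries the maximum lay 72.3 to 78.7 kb from the lower end of this gene of 78253 bp, that is, towards its upper end.

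The thioredoxin system consists of thioredoxin, TXN, its NADPH-dependent reductase TXNRD1, and SRXN1, sulfiredoxin, which restores over-oxidised peroxiredoxins. TXNRD1 runs from 104215779 to 104350307 on the plus strand of chromosome 12 and has 2 annotated starts, at 104215779 and 104287032. TXNRD1 was occupied in 7 of 8 SMARCA1, 8 of 8 OGG1 and 4 of 4 Orc6 libraries. The regions favoured the inner start, which was occupied in 18 of 20 libraries, while the outer one was occupied in 5 of 20. By antibody, the inner start was occupied in 7 of 8 SMARCA1, 7 of 8 OGG1 and 4 of 4 Orc6 libraries, and the outer start in 1, 3 and 1. All 3 OGG1 libraries with a region at the outer start were H2O2 libraries, 3 of 4 against 0 of 4 NT (Fisher's exact test, unadjusted p = 0.143). EID3, another gene, lies inside TXNRD1, so regions there cannot be given to TXNRD1 alone.

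The promoters below belong to the targets with a start whose occupancy differed most between groups within an antibody, down to 4 of 4 against 1 of 4 or 3 of 4 against 0 of 4 libraries, and to the inner start of TXNRD1, shown beside its outer one; the second SQSTM1 start shares its regions with the first and is not shown. The antioxidant response element was searched as TGACNNNGC on both strands in the 250 bases before each annotated start (RefSeq, GRCh38.p14), and a match is in capitals. TXNRD1 held a match before both starts, ending 91 and 94 bases before them, and GCLM held one ending 26 bases before its start. In all, 3 of 11 promoters (27.3%) of the 8 targets with an entry held a match, against 3830 of 35116 promoters (10.9%) of all genes, and HMOX1 and SLC7A11 had no entry. The windows are chr12:104215529-104215778 (plus) and chr12:104286782-104287031 (plus) for TXNRD1, chr1:93909431-93909680 (minus) for GCLM, chr6:53545102-53545351 (minus) for GCLC, chr9:110256508-110256757 (minus) for TXN and chr5:179806143-179806392 (plus) for the first start of SQSTM1. A match is a description of letters and not a bound site, and the absence of one says only that these letters are not in this window.
TXNRD1 outer start: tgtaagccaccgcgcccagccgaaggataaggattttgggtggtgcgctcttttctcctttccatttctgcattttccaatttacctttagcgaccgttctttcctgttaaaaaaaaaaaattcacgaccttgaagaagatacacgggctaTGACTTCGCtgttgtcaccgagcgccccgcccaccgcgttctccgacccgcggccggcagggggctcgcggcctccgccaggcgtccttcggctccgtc
TXNRD1 inner start: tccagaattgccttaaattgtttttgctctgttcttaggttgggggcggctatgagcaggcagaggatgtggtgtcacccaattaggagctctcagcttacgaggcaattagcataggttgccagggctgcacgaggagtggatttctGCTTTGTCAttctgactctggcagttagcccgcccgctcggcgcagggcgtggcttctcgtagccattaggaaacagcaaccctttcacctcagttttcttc
GCLM: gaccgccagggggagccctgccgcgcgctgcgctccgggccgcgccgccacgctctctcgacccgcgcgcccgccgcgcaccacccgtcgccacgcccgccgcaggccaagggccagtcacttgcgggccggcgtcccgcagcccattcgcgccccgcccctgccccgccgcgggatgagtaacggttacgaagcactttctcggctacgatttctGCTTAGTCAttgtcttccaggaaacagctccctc
GCLC: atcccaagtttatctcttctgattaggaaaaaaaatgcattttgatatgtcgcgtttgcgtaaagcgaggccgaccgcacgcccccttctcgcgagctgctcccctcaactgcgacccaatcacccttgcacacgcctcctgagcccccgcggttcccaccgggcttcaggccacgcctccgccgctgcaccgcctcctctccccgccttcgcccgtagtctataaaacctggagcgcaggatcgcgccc
TXN: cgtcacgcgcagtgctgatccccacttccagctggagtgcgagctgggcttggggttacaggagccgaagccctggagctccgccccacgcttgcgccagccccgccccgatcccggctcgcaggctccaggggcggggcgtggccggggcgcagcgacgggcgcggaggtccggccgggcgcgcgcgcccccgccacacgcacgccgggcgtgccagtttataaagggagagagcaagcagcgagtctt
SQSTM1 first start: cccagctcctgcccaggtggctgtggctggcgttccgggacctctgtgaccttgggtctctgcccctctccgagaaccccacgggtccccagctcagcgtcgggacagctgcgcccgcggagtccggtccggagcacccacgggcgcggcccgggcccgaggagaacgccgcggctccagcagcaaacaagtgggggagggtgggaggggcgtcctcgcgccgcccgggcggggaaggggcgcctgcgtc

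TXN, on the minus strand of chromosome 9 at 110243810 to 110256507, was occupied in 4 of 8 SMARCA1, 7 of 8 OGG1 and 1 of 4 Orc6 libraries. With SMARCA1, its percentiles were 86.1 and 89.5 in siOrc6 H2O2 and 56.3 and 59.1 in siOrc6 NT libraries, and none of the 4 siGl3 libraries had a region. With OGG1, they were 84.0, 71.5, 77.4 and 82.4 in H2O2 libraries, against 32.7, 22.5 and 16.3 in NT libraries, with no region in siOrc6 NT replicate 2. The median over all occupied genes stood higher with H2O2 too. For SMARCA1 siOrc6 it was 78.8 and 85.9, against 61.1 and 57.4 in NT. For OGG1 it was 88.1 to 91.0, against 65.9 to 71.1 in NT. Places in lists of unequal length do not show a change in signal at TXN. The maximum lay within 1 kb of the TXN start in 11 of 12 libraries. SRXN1, on the minus strand of chromosome 20 at 646615 to 653200, was occupied in 6 of 8 SMARCA1, 8 of 8 OGG1 and 4 of 4 Orc6 libraries. Its maximum lay within 1 kb of the start in 16 of 18 libraries.

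OSGIN1, an oxidative stress induced growth inhibitor, lies on the plus strand of chromosome 16 at 83953240 to 83966332, and its window also meets NECAB2. It was occupied in 7 of 8 SMARCA1, 8 of 8 OGG1 and 4 of 4 Orc6 libraries, with the maximum within 1 kb of the start in 17 of 19. SQSTM1 encodes p62, an autophagy receptor that also binds KEAP1. SQSTM1 spans 179806393 to 179838078 on the plus strand of chromosome 5, with starts at 179806393, 179807009 and 179820905. MGAT4B and MRNIP reach into its window, so regions there cannot be given to SQSTM1 alone. It was occupied in 7 of 8 SMARCA1, 8 of 8 OGG1 and 4 of 4 Orc6 libraries.

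The SQSTM1 starts were not occupied alike. The innermost start met a region in 18 of 20 libraries, while the outer 2, which lie close together and share regions, met one in 15 of 20. In SMARCA1 libraries the outer starts were occupied in 4 of 4 siOrc6 and 0 of 4 siGl3 libraries, and the innermost one in 4 of 4 siOrc6 and 3 of 4 siGl3 libraries. The SMARCA1 siOrc6 regions over the first start were 8644, 8151, 5684 and 9660 bp wide, at percentiles 96.8, 97.8, 24.4 and 83.3. At these outer SQSTM1 starts OGG1 and Orc6 regions were found in 7 of 8 and 4 of 4 libraries. Whether regions at the outer starts belong to SQSTM1 or to a gene reaching into its window, such as MGAT4B, was not tested.

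**Figure D4:**
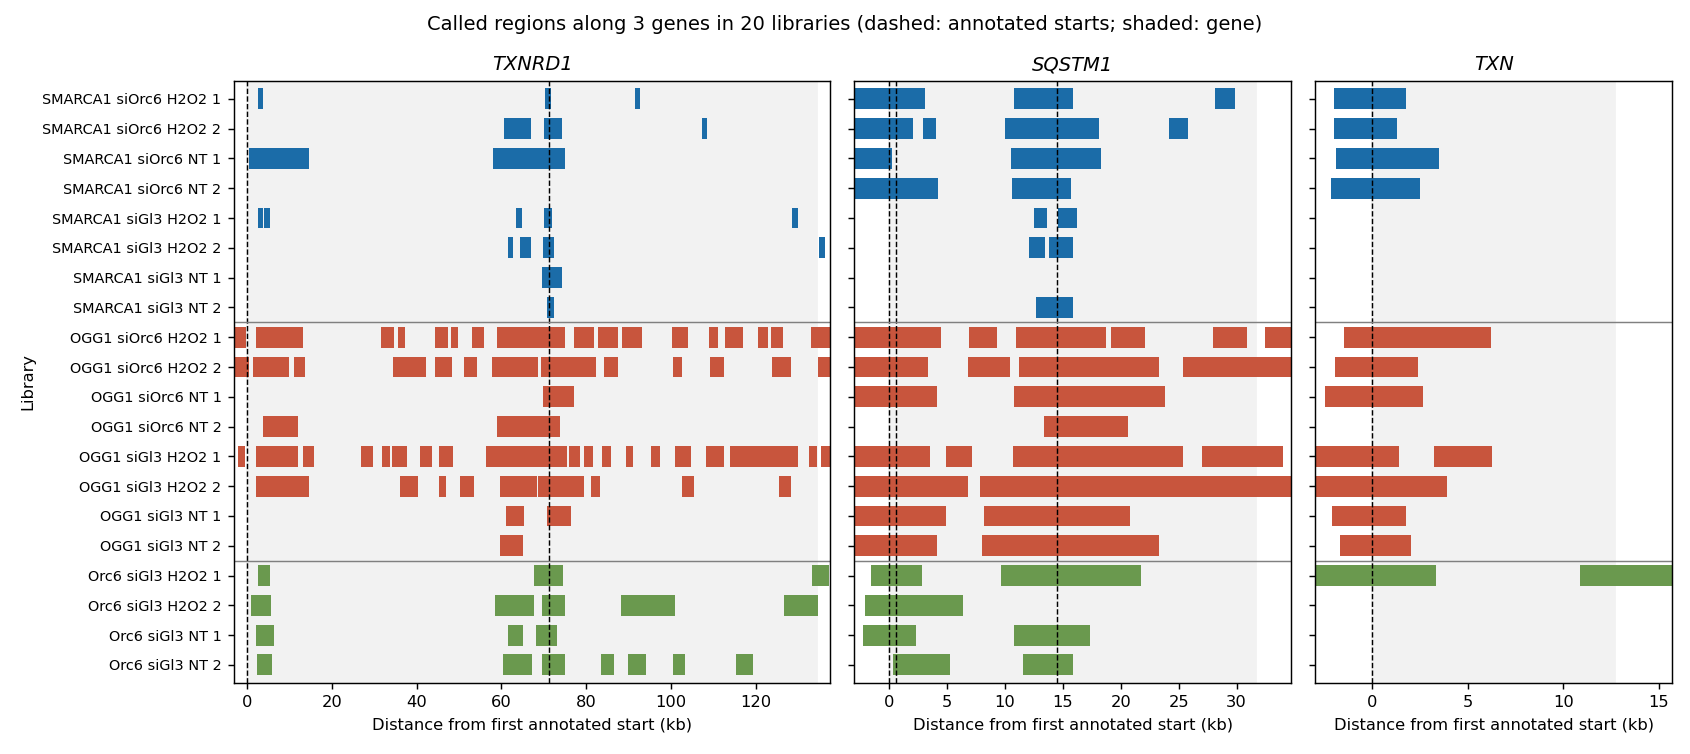
Called regions at TXNRD1, SQSTM1 and TXN by library (rows), with distance in kb from the first annotated start on the x axis, dashed lines at the annotated starts and the gene shaded; bars are clipped 3 kb beyond the gene. SMARCA1 bars come within 1 kb of the first SQSTM1 start and of TXN in all 4 siOrc6 libraries and in none of the 4 siGl3 libraries, and TXNRD1 bars gather at its inner start.

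H2O2 was set against non-treated cells to ask whether oxidative damage changes where these proteins sit. For SMARCA1, 8.75 ± 0.5 targets were occupied in H2O2 libraries and 6.5 ± 2.08 in NT libraries (SD, n = 4 each), while the share of all genes was 66.8% and 34.3%. Each arm held 2 libraries per siRNA. This SD, like the others over 4 libraries below, therefore holds the spread between siRNAs or treatments as well. With siOrc6 the means were 9.0 with H2O2 and 8.0 in NT, beside 75.2% and 48.0% of genes. With siGl3 they were 8.5 and 5.0, beside 58.3% and 20.6% of genes (n = 2 each). No target was occupied in all H2O2 and no NT libraries or the reverse, patterns shown by 5.02% and 0.02% of all genes. HMOX1, GCLM, TXNRD1, SLC7A11, OSGIN1 and SQSTM1 were occupied in more H2O2 than NT libraries, as were 68.7% of all genes. GCLM differed most, with 4 of 4 against 1 of 4 (Fisher's exact test, unadjusted p = 0.143). No target and 0.0% of genes in either direction passed Fisher's exact test with Benjamini-Hochberg adjustment at 0.05, whose smallest adjusted p was 0.0586, and 1007 genes (5.04%), no target among them, had an unadjusted p below 0.05. On full lists TXN was the only target that could be tested. The others were occupied in too many or too few libraries for any arrangement to reach p below 0.05. Within replicate number, which the labels give as a batch, SMARCA1 occupied 8.5 targets with H2O2 and 6.5 in NT in batch 1, and 9.0 and 6.5 in batch 2.

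For OGG1, 9.75 ± 0.5 targets were occupied in H2O2 libraries and 9.0 ± 0 in NT libraries (SD, n = 4 each), with 84.5% and 58.2% of all genes. SLC7A11, in 3 of 4 and 1 of 4, and TXN, in 4 of 4 and 3 of 4, were occupied more often with H2O2, as were 47.3% of all genes. The other 8 targets were occupied in all 8 libraries. No target passed, while 1566 genes (7.84%) passed as occupied in all H2O2 and no NT library and 0.0% in the reverse. SLC7A11 was the only target that could be tested. The batch values were 10 with H2O2 and 9.0 in NT in batch 1, and 9.5 and 9.0 in batch 2.

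For Orc6, 9.5 ± 0.707 targets were occupied in H2O2 libraries and 9.0 ± 0 in NT libraries (SD, n = 2 each), with 64.7% and 56.9% of genes. TXN alone was occupied more often, in 1 of 2 H2O2 and 0 of 2 NT libraries, as were 20% of genes. No target was all or none, against 1.95% and 0.31% of genes, and with 2 libraries per group the exact test cannot go below p = 0.333, so 0.0% of genes had a p below 0.05. The batch values were 10 with H2O2 and 9.0 in NT in batch 1, and 9.0 in both in batch 2, so without H2O2 replicate 1 the groups did not differ in their mean.

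With list length made equal, the direction of these differences depended on how the lists were cut. With each library cut to the same number of regions of highest maximum signal, the mean difference of H2O2 minus NT turned to -1.0 targets for SMARCA1, -0.75 for OGG1 and -0.5 for Orc6, against 2.25, 0.75 and 0.5 on full lists. Cut by total signal instead, it was 0.75 for SMARCA1 and 0.5 for Orc6, with no turn, and -0.75 for OGG1. Without SMARCA1 siGl3 NT replicate 1, the shortest list, the SMARCA1 difference was 1.42. GCLM passed for SMARCA1 when regions were limited to at most 5 kb, with 4 of 4 H2O2 against 0 of 4 NT libraries (Fisher's exact test with Benjamini-Hochberg adjustment, adjusted p = 0.0453), as did 9.6% of all genes higher with H2O2 and 0.01% lower. GCLM also passed when regions were limited to the upper 50% of each list by total signal (adjusted p = 0.0485), as did 7.64% of genes higher and 0.01% lower. TXN passed for OGG1 under that second limit, with 4 of 4 against 0 of 4 (adjusted p = 0.0313), as did 13.2% of genes higher and 0.0% lower. In each of these cases 1 of 10 targets is near the share of all genes.

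The share of a gene covered by regions, measured because most targets were occupied in nearly every library, separated more targets. It is the percentage of bases of the gene and its flanks that lie in a region. For OGG1, NQO1 was covered to 94.4%, 95.6%, 100% and 100% in H2O2 libraries, against 58.1%, 24.5%, 56.4% and 58.4% in NT libraries. TXNRD1 was covered to 53.5%, 47.7%, 61.5% and 35.9% in H2O2 libraries, against 5.38%, 16.9%, 7.31% and 3.92% in NT libraries. The means were 97.5 ± 2.91% and 49.3 ± 16.6% for NQO1, and 49.7 ± 10.8% and 8.38 ± 5.84% for TXNRD1 (H2O2 and NT, SD, n = 4 each). The H2O2 and NT libraries of OGG1 did not overlap at these genes, nor at SQSTM1, with 80.9 ± 13.3% and 47.8 ± 17.8%. Among all genes 39.9% were higher without overlap and 0.01% lower, so 3 of 10 targets is not above the background.

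None of the targets and 0.0% of genes passed for covered share in the OGG1 comparison (exact permutation test with Benjamini-Hochberg adjustment, smallest adjusted p = 0.063). Of the 70 arrangements of 4 against 4 libraries the exact test's smallest p is 0.0286, which needs groups that do not overlap, so the shares without overlap are also those with an unadjusted p below 0.05. For SMARCA1 no target was separated by H2O2, against 7.0% of genes higher and 0.245% lower, and 0.0% passed (exact permutation test, smallest adjusted p = 0.329). With OGG1 lists of equal length, TXNRD1 alone remained separated, and 9.58% of genes were; with equal covered bases no target was, and 1.77% of genes were.

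The siRNA comparison asks whether loss of Orc6 changes SMARCA1 and OGG1 occupancy. For SMARCA1, 8.5 ± 1.0 targets were occupied in siOrc6 libraries and 6.75 ± 2.22 in siGl3 libraries (SD, n = 4 each), with 61.6% and 39.5% of all genes. Each arm held 2 libraries per treatment, and the difference lay mostly in NT libraries. There the means were 8.0 in siOrc6 and 5.0 in siGl3 libraries, against 9.0 and 8.5 with H2O2 (n = 2 each). TXN was occupied in 4 of 4 siOrc6 and 0 of 4 siGl3 libraries, in each batch 2 of 2 and 0 of 2 (Fisher's exact test with Benjamini-Hochberg adjustment, adjusted p = 0.126, unadjusted p = 0.0286). This pattern was shared by 452 genes, 2.26% of all, and the reverse was shown by 0.0751% and by no target. HMOX1, GCLM, SRXN1, OSGIN1 and SQSTM1 were also occupied in more siOrc6 libraries, making 6 targets with TXN, against 57.3% of all genes. TXNRD1 and SLC7A11 were occupied in fewer, as were 7.61% of genes. No target and 0.0% of genes passed, and 467 genes (2.34%), TXN alone among the targets, had an unadjusted p below 0.05. TXN was also the only target that could be tested.

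Within batches the SMARCA1 means were 9.0 targets in siOrc6 and 6.0 in siGl3 libraries in batch 1, and 8.0 and 7.5 in batch 2. Without SMARCA1 siGl3 NT replicate 1 the difference of siOrc6 minus siGl3 was 0.83 targets, against 1.75 with all libraries. It turned to -2.0 with regions of at most 5 kb and to -0.75 with equal covered bases. TXN passed with lists of equal length, 6992 regions each (Fisher's exact test with Benjamini-Hochberg adjustment, adjusted p = 0.0447), as did 4.82% of all genes higher with siOrc6 and 0.335% lower.

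Tested start by start over 22132 annotated starts, TXN and the outer 2 starts of SQSTM1 were all occupied in 4 of 4 siOrc6 and 0 of 4 siGl3 SMARCA1 libraries (Fisher's exact test with Benjamini-Hochberg adjustment, adjusted p = 0.0653). Of all starts 3.96% showed this pattern, 0.0316% the reverse, and 0.0% passed. The share of all starts occupied was 54.1% in siOrc6 and 26.7% in siGl3 SMARCA1 libraries. With lists of equal length the TXN start kept 4 of 4 against 0 of 4 (adjusted p = 0.0438), while the outer SQSTM1 starts had 3 of 4 against 0 of 4, and 4.67% of all starts passed as higher and 0.108% as lower. With equal covered bases TXN had 1 of 4 against 0 of 4 and the outer SQSTM1 starts 3 of 4 against 0 of 4, and 0.542% of all starts were occupied in all siOrc6 and no siGl3 libraries, with 0.0% passing.

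In covered share, 5 of the 10 targets were separated between siOrc6 and siGl3 SMARCA1 libraries, against 17.8% of all genes higher and 0.706% lower. HMOX1 was covered to 72.9%, 94.7%, 100% and 67.2% in siOrc6 libraries, against 51.5%, 54.3%, 0% and 20.2% in siGl3 libraries, with H2O2 replicates first. SQSTM1 was covered to 32.5%, 41.3%, 26.8% and 30.7% in siOrc6 libraries, against 8.33%, 10.2%, 0% and 9.43% in siGl3 libraries. TXN was covered to 18.9%, 15.6%, 30.5% and 23.6% in siOrc6 libraries and 0% in all siGl3 libraries. The other separated targets were SRXN1, with 40.7 ± 11.9% and 7.3 ± 8.9%, and OSGIN1, with 41.0 ± 10.4% and 13.8 ± 9.27% (siOrc6 and siGl3, SD, n = 4 each). GCLC had the opposite sign, with 7.92 ± 1.83% and 16.1 ± 10.4%, its groups overlapping (exact permutation test, p = 0.229).

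The median difference of siOrc6 minus siGl3 in SMARCA1 covered share was 17.2 percentage points over the 10 targets and 1.97 over all genes. Genes without a region in either group enter the all-gene median as 0. The median covered share of all genes was 0.0% to 8.34% per SMARCA1 library, so most genes had little coverage to differ in. The gap between these 2 medians was not tested. No target and 0.0% of genes passed (exact permutation test with Benjamini-Hochberg adjustment, smallest adjusted p = 0.129). With lists of equal length OSGIN1, TXN and SQSTM1 were separated, as were 11.2% of genes, and with equal covered bases no target was, against 3.02% of genes.

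**Figure D5:**
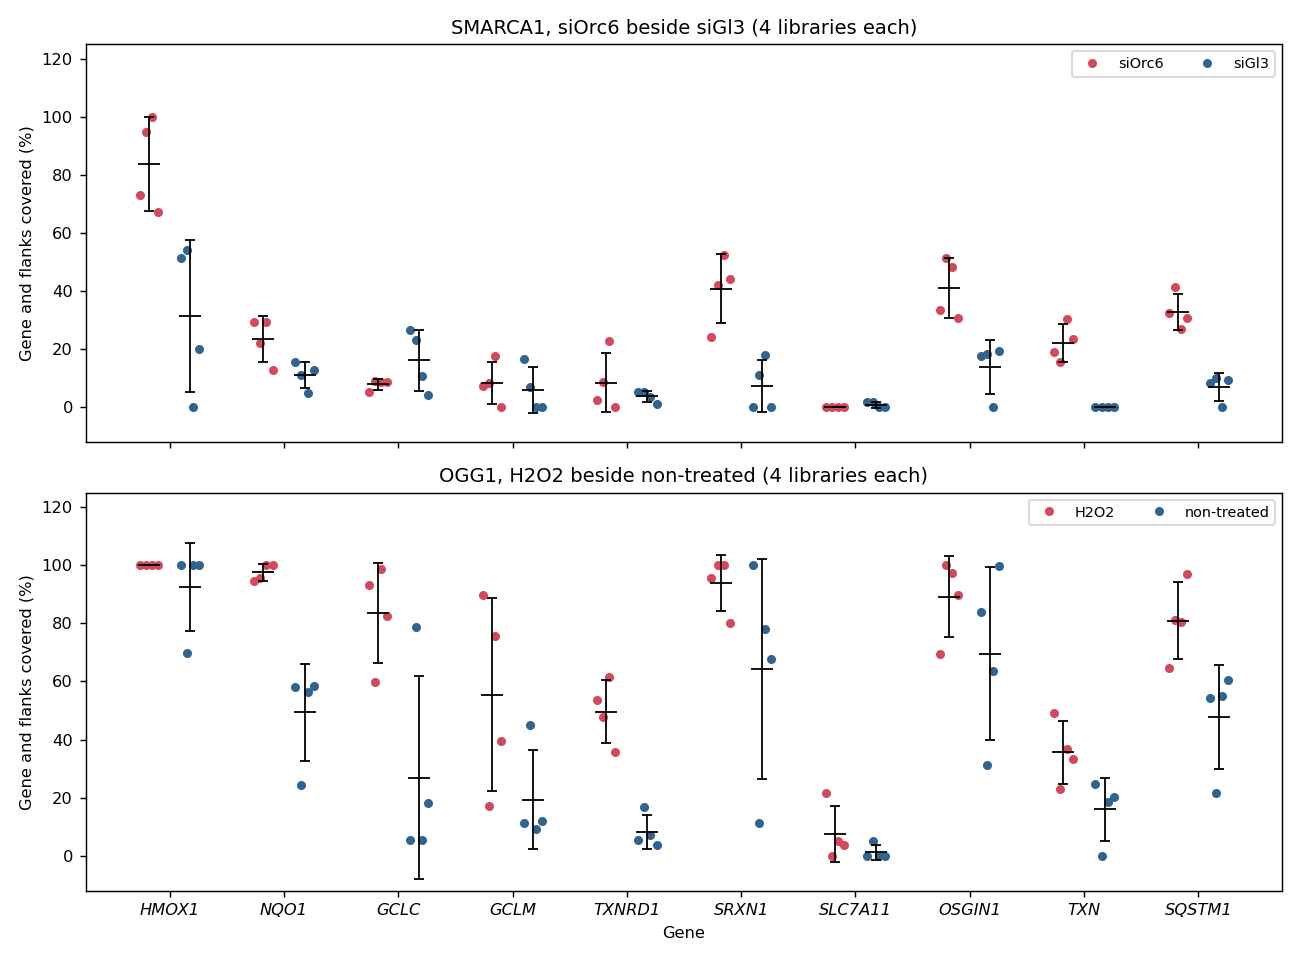
Percentage of bases of each NRF2 target and its flanks covered by regions, for SMARCA1 in siOrc6 against siGl3 libraries (top) and OGG1 in H2O2 against NT libraries (bottom). Points are libraries and bars the mean ± SD of 4; HMOX1, SRXN1, OSGIN1, TXN and SQSTM1 do not overlap in the top panel, and NQO1, TXNRD1 and SQSTM1 do not in the bottom one.

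For OGG1, siOrc6 and siGl3 libraries occupied 9.25 ± 0.5 and 9.5 ± 0.577 targets (SD, n = 4 each), and 71.3% and 71.4% of genes. TXN was occupied in 3 of 4 siOrc6 and 4 of 4 siGl3 libraries, as 17.0% of genes were occupied less often with siOrc6. The other 9 targets were occupied equally often. No target and 0.0% of genes were all or none or passed by Fisher's exact test, and none had an unadjusted p below 0.05. SLC7A11 was the only target that could be tested. In covered share no target was separated, against 0.00501% of genes higher and 0.19% lower. The batch values were 9.5 targets in both groups in batch 1, and 9.0 in siOrc6 and 9.5 in siGl3 libraries in batch 2. The difference of siOrc6 minus siGl3, -0.25 targets, turned to 0.5 in the upper 50% of each list and to 0.25 with equal covered bases.

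The antibodies were compared over the same siRNA and treatment groups. SMARCA1 libraries occupied 7.62 ± 1.85 targets and OGG1 libraries 9.38 ± 0.518 (SD, n = 8 each), with 50.5% and 71.3% of genes. Of the 10 targets, 8 were occupied in fewer SMARCA1 libraries, as were 72.5% of genes, and NQO1 and GCLC were occupied in all of both. The batch values were 7.5 for SMARCA1 and 9.5 for OGG1 in batch 1, and 7.75 and 9.25 in batch 2. GCLM, with 5 of 8 SMARCA1 and 8 of 8 OGG1 libraries, did not pass (Fisher's exact test, unadjusted p = 0.2). No target and 0.0% of genes passed in either direction, 0.0% and 0.01% were all or none, and 1029 genes (5.15%), no target among them, had an unadjusted p below 0.05. On full lists only SLC7A11 and TXN could be tested. With equal covered bases, NQO1 and GCLC, with 5 of 8 SMARCA1 and 0 of 8 OGG1 libraries each, and SQSTM1, with 6 of 8 and 0 of 8, passed in favour of SMARCA1 (Fisher's exact test with Benjamini-Hochberg adjustment, adjusted p = 0.0482 for NQO1 and GCLC and 0.0254 for SQSTM1). Under that setting 8.28% of all genes passed in favour of SMARCA1 and 0.035% in favour of OGG1. The strongest regions at NQO1 had a median width of 4548.5 bp for SMARCA1 and 15724 bp for OGG1, so broad regions use up the equal bases sooner, and the part of width was not tested.

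In siGl3 cells, SMARCA1 libraries occupied a mean of 6.75 targets and Orc6 libraries 9.25 (n = 4 each), with 39.5% and 60.8% of genes, and 7 targets were occupied less often by SMARCA1, as were 56.4% of genes. The batch values were 6.0 for SMARCA1 and 9.5 for Orc6 in batch 1, and 7.5 and 9.0 in batch 2. No target was all or none, against 0.00501% and 0.716% of genes, none and 0.0% of genes passed Fisher's exact test, and 144 genes (0.721%) had an unadjusted p below 0.05. On full lists 0 targets could be tested here, their occupied libraries being too many or too few. NQO1 passed there with equal covered bases, with 4 of 4 SMARCA1 and 0 of 4 Orc6 libraries (adjusted p = 0.0476), as did 2.65% of all genes in favour of SMARCA1 and 0.00501% in favour of Orc6. OGG1 libraries of siGl3 cells occupied a mean of 9.5 targets and Orc6 libraries 9.25, with 71.4% and 60.8% of genes, and by batch 9.5 for both in batch 1, and 9.5 and 9.0 in batch 2. TXN, with 4 of 4 OGG1 and 1 of 4 Orc6 libraries, was occupied more often by OGG1, as were 33.3% of genes, and SLC7A11, with 2 of 4 and 4 of 4, less often, as were 14.1%. No target was all or none, against 2.5% and 0.015% of genes, and none passed Fisher's exact test, with 502 genes (2.51%) at an unadjusted p below 0.05. Again 0 targets could be tested.

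Of 37 other genes of the NRF2 pathway, 8 regulators, 9 further antioxidant genes, 6 of NADPH supply and 14 of detoxification and export, SMARCA1 occupied a mean of 27.5 in H2O2 and 17.5 in NT libraries, and 27.0 in siOrc6 and 18.0 in siGl3 libraries. OGG1 occupied 35.0 in H2O2 and 26.5 in NT libraries, and 30.5 in siOrc6 and 31.0 in siGl3 libraries. For OGG1, 5 of the 37 rose with H2O2, each occupied in 4 of 4 H2O2 and 0 of 4 NT libraries (Fisher's exact test with Benjamini-Hochberg adjustment, adjusted p = 0.0323): ME1, which makes NADPH, the reductases AKR1B10 and AKR1C3, the glutathione transferase MGST1, and PIR, pirin. Of all genes 7.84% had this call. AKR1B10 and AKR1C3 have near-identical copies, whose reads the mapping could have mixed. With lists of equal length or equal covered bases none of these 5 and 0.0% of all genes passed, and none passed without any 1 of the 4 OGG1 H2O2 libraries or with adjustment over all genes.

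Among the regulators, CUL3, a scaffold of the ligase that removes NRF2, was occupied by SMARCA1 in 4 of 4 H2O2 and 0 of 4 NT libraries and did not pass (adjusted p = 0.0586, Fisher's exact test). Of all genes 5.02% showed this pattern. KEAP1, the sensor of the pathway, and CBR3, a carbonyl reductase, were occupied in 4 of 4 OGG1 and 0 of 4 Orc6 libraries of siGl3 cells and did not pass (adjusted p = 0.0851, Fisher's exact test). That pattern was shown by 2.5% of all genes. No pathway gene beyond the 10 targets was all or none between siOrc6 and siGl3. Among all genes the shares were 2.26% higher and 0.0751% lower with siOrc6 for SMARCA1, and 0.0% in either direction for OGG1. The absence is near these shares and does not set the targets apart.

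The authors also deposited a list of 13557 Orc6 regions for non-treated siGl3 cells and SMARCA1 windows marked up or ns, stored with the siOrc6 samples. In the authors' deposited Orc6 list 9 of the 10 targets had a region, all but SLC7A11, as did 43.6% of genes. Among them was TXN, which had no region in either Orc6 NT library. The authors' deposited windows marked up for NT held NQO1, SRXN1, OSGIN1, TXN and SQSTM1, 5 targets, with 34.0% of genes, and those for H2O2 held GCLC, GCLM, SRXN1, OSGIN1, TXN and SQSTM1, 6 targets, with 50.1% of genes. SQSTM1 had 2 windows in each, the NT ones centred -88 and 14659 bp from its first start, by both its outer and its innermost starts. The authors' deposited windows marked ns held 3 targets for NT (10.5% of genes), HMOX1, GCLC and TXNRD1, and 7 for H2O2 (44.5% of genes). Those 7 were HMOX1, NQO1, GCLC, GCLM, TXNRD1, OSGIN1 and SQSTM1. GCLC, GCLM, OSGIN1 and SQSTM1 thus had H2O2 windows of both marks, GCLC with 1 up and 4 ns. The sources used here do not say which samples these windows compare.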

How the data were processed

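CUT&RUN libraries were made from 500000 cells fixed in 0.1% formaldehyde for 1 min and read as pairs of 150 bases, per the labels' protocols. Per the submitters' processing notes, SEACR 1.1, Bowtie2, SAMtools, DESeq2, DiffBind, deepTools and bedtools were used with hg38, in roles not stated. Each deposited list gives the authors' total and maximum signal of each region in 1 library. The sources used here do not give its normalization or control, so signal was used only to rank regions within a list, and depth and counting error are unknown. Antibody and siRNA were taken from sample titles, where the series' design text names SMARCA5 for some arms.

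The members and gene lists were chosen with earlier results of these data known. All 10 targets are named, and of 37 other pathway genes those with an all-or-none pattern between the compared libraries. Regions on chromosomes 1 to 22 and X were joined to RefSeq GRCh38.p14 genes, a table without exons. Occupancy was tested per gene by two-sided Fisher's exact test, with Benjamini-Hochberg adjustment over genes whose total allows p below 0.05. Covered share, by exact two-sided permutation, and single starts were added after the data were seen, as were their alternatives. Nothing says that replicates came from separate cultures, so p-values measure only the spread between these libraries.

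Replicate numbers pair the libraries, being labelled as batches. Over 45 pairs of groups the correlation of deviations was -0.53 to 0.48 (median -0.02, 13 above 0.1). Scripts were tested on simulated data. Alternatives covered window, overlap, list length, covered bases, region width, signal rank, adjustment, block and libraries left out. Software was matplotlib 3.10.9, pandas 2.3.3, scipy 1.17.1, numpy 2.4.6 and Python 3.11.15.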

Additional observations from a re-analysis of the deposited data

Results flagged for a closer look

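Of 80 contrasts of covered share between antibodies, in 4 both replicates of one antibody moved one way and both of the other moved the opposite way. These differences were not tested. No share over all genes was taken for this pattern, so the count does not set the targets apart from other genes. At SQSTM1 with H2O2, siOrc6 minus siGl3 was 24.2 and 31.1 percentage points for SMARCA1 and -16.1 and -15.7 for OGG1, a mean gap of 43.6. At SQSTM1 in NT libraries it was 26.8 and 21.3 for SMARCA1 and -0.876 and -38.9 for OGG1, a gap of 44.0. At NQO1 with H2O2 it was 13.9 and 10.8 for SMARCA1 and -5.56 and -4.36 for OGG1, a gap of 17.3. OGG1 covered NQO1 to 100% in both siGl3 H2O2 libraries, so its siOrc6 libraries could not be higher. At TXN in siOrc6 cells, H2O2 minus NT was -11.6 and -8.06 for SMARCA1 and 24.3 and 23 for OGG1, a gap of -33.5. The SMARCA1 siOrc6 lists are also the resubmitted ones, which cannot be told apart from the siRNA in the SQSTM1 and NQO1 contrasts.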

How the results depend on the processing

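Depth is unknown and list length moved with antibody, siRNA and treatment, which limits every count of targets. With 4 libraries per arm only an all-or-none gene can reach p = 0.0286 in Fisher's exact test. On full lists 1 target could be tested in each H2O2 and siRNA comparison of SMARCA1 and OGG1. It was 2 targets in SMARCA1 against OGG1 and 0 in comparisons with Orc6. A count of 0 passing therefore does not show that the untested targets were alike between arms. Of the 164 counts of passing targets under alternatives, 158 matched the reported 0, some because no other count was possible. The other 6 were 1 target for SMARCA1 with H2O2 (regions of at most 5 kb, and the upper 50% by signal), 1 for OGG1 with H2O2 (upper 50%), 1 for SMARCA1 with siOrc6 (equal list length), 3 for SMARCA1 against OGG1 and 1 for SMARCA1 against Orc6 (equal covered bases). The replicate block changed no call: 0 targets passed in any comparison. With 4 pairs its exact sign test cannot go below p = 0.125, and with the 2 pairs of Orc6 its floor is higher. SMARCA1 against OGG1 had 8 pairs, so that floor does not hold there. The forced matches among the 158 include these blocks of 4 or 2 pairs. They also include all settings of Orc6 with H2O2, where 2 against 2 libraries give 0.333 at best by Fisher's exact test. Such matches do not show that a result is stable, so 158 is not a measure of robustness.

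The difference in mean number of targets moved beyond 1 SD in 21 of 86 cases; the cause was not tested. For SMARCA1, H2O2 minus NT was 5.5 with regions of at most 5 kb, 3.5 in the upper 50%, 0.75 with equal list length and -1.0 with equal length by maximum signal. For OGG1 it was 1.75 for gene ends, 2.75 with regions of at most 5 kb, 3.0 in the upper 50%, -0.75 with either equal length and -3.25 with equal covered bases. For Orc6 it was 1.5 for gene ends, -3.5 with regions of at most 5 kb, -0.5 with equal length by maximum signal and -2.5 with equal covered bases. For SMARCA1, siOrc6 minus siGl3 was 3.0 for gene ends and in the upper 50%, -2.0 with regions of at most 5 kb and -0.75 with equal covered bases. For OGG1 it was 0.5 in the upper 50%, -0.75 with equal length by maximum signal and 0.25 with equal covered bases.

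Leaving out 1 library gave a difference of 1.42 to 3.08 for SMARCA1 with H2O2 and 0.67 to 1.0 for OGG1 with H2O2. It gave 0.83 to 2.5 for SMARCA1 with siOrc6 and -0.5 to -0.08 for OGG1 with siOrc6. In these comparisons 0 targets passed each time. For Orc6 with H2O2 the difference was 0.0 to 1.0, and no target could pass with so few libraries. By the median over all regions of a gene, TXNRD1 stood at percentile 47.4 and SQSTM1 at 70.2, and the other 8 targets moved by less than 1 SD.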
